A study of Homo sapiens with 39 samples.

Results

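The genes described here are CLK kinases, SR proteins, hnRNPs and other splicing regulators, measured in U937 cells, an established human histiocytic lymphoma line. A list of 39 symbols was drawn up with results of these arrays already known, and each gene was represented by a probe set selected on the highest mean over all 39 arrays. Of the 39 genes, 38 were measured, out of 18132 genes in all. The remaining one, U2AF1, which recognises the 3′ splice site, had only probe sets that are also annotated to a second gene and was given no value. PRPF4B, a kinase of the spliceosome, stands in the probe annotation under its other name PRP4K. Because the list was drawn up with results known, counts over it are descriptions of these genes. The same share over all genes is printed beside many of them.

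The 13 groups held 3 arrays each. Untreated U937 cells were sampled at 0, 24, 48 and 72 h of culture, and cells cultured with 10 µM of the oligonucleotide Pu27, Pu9- or Pu5- were sampled at 24, 48 and 72 h. All 3 oligonucleotides are guanine-rich sequences resembling a c-MYC promoter element that can fold into a G-quadruplex. All cells were of the same line and medium, and no group received an unrelated control oligonucleotide, so an effect of adding any oligonucleotide cannot be told apart from an effect of its sequence. The labels speak of 3 repeat experiments without saying more, so the tests describe how these arrays scatter, which may be technical. Total RNA was hybridised to 3′ expression arrays, and levels are the deposited log2 values. On this scale a difference of 1 doubles the linear value, and every change is relative to the other transcripts on the array. In such bulk RNA, fewer cells of a type and less RNA per cell cannot be told apart.

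Pre-mRNA splicing is guided by SR proteins, which carry an RNA-binding domain and a tail rich in arginine and serine, and by hnRNPs, which coat nascent RNA and often oppose them. CLK kinases phosphorylate the arginine-serine tails and so release SR proteins from nuclear speckles. Many of these genes hold poison exons or retained introns through which their own products, or kinase activity, set how much productive mRNA is made. A 3′ array reads the amount of the transcripts its probes match and does not read splicing directly.

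All 38 genes lay above the median level of all genes (6.46), from 7.66 for CLK4 to 13.65 for HNRNPA1 as the mean log2 level of the chosen probe set. Median gene levels of single arrays ranged from 6.34 to 6.51. The ACTB 3′ minus 5′ probe difference, a sign of RNA integrity, had group means of 1.91, 1.97, 2.02 and 2.05 in untreated cells at 0, 24, 48 and 72 h, and of 2.24, 2.10 and 2.04 with Pu27, Pu9- and Pu5- at 72 h. Myeloid genes were mixed in level: LYZ (12.99) and ELANE (12.04) were high, whereas CD14 (3.46), MPO (4.85) and SPI1 (5.29) lay below the median gene. Markers of T cells (CD3D, 3.83) and epithelium (EPCAM, 3.21) were low. Of the B-cell markers, MS4A1 (3.86) and CD79A (6.06) lay below the median gene and PAX5 was at 9.13.

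In untreated cells the genes fell into contrasting time courses. The hnRNP genes other than HNRNPH1, and the SR protein and TRA2 genes other than SRSF5 and SRSF11, had their highest mean at 24 h. CLK1, PNISR, RSRP1 and the RNA-binding motif genes had theirs at 72 h. The level was highest at 24 h for 21 genes, at 72 h for 16, at 48 h for 1 and at 0 h for 0. Changes were tested with limma in a model of all 13 groups, with Benjamini-Hochberg adjustment over 18132 genes and a threshold of 0.05. From 0 to 24 h, 21 of the 38 genes rose and 3 fell, against 14% and 14.6% of all genes. From 24 to 48 h, 6 rose and 10 fell (12.2% and 10.4% of all genes), and from 48 to 72 h, 12 rose and 8 fell (7.91% and 9.44%). Between 24 and 72 h, 13 rose and 18 fell, against 17.7% in each direction over all genes, with a median of −0.16 over the 38 genes and 0.00 over all genes. Against 0 h, 14 were higher and 2 lower at 72 h (7.61% and 7.99% of all genes). From 48 to 72 h the number called was 13 rather than 20 without the first array at 48 h or the third at 72 h.

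**Figure D1:**
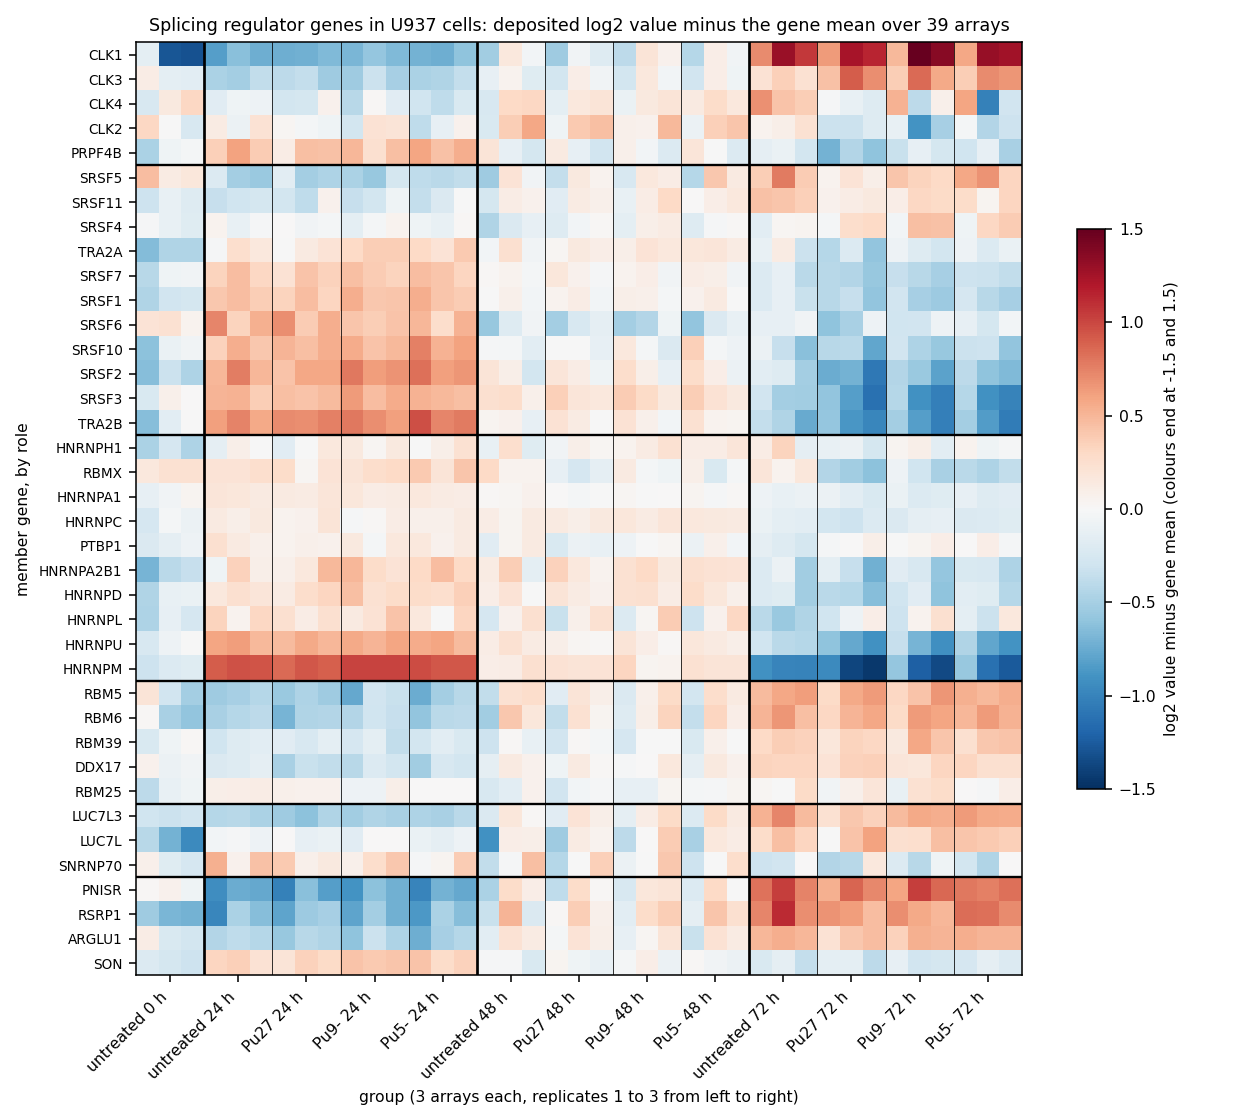
Log2 level of each of the 38 genes on each of the 39 arrays, as the difference from that gene's mean over the 39 arrays, with arrays in columns by group and genes in rows by role. Red is above and blue below the mean, with colours ending at −1.5 and 1.5. In untreated cells 21 genes are highest at 24 h and 16 at 72 h.

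Measured over the whole 72 h, CLK1 was higher than at 0 h by 1.94 (adjusted p = 3.2e-06), RSRP1 by 1.49 (adjusted p = 5.1e-07) and LUC7L by 1.04, and all 5 RNA-binding motif and DDX17 genes were higher. Of 14 genes with a lower mean at 72 h than at 0 h, 2 passed the test, HNRNPM and SRSF3 (−0.39, adjusted p = 0.045). In the first 24 h, PNISR, SRSF5 and CLK3 were the 3 that fell, and HNRNPM rose most (1.17, adjusted p = 4.2e-08), followed by SRSF2 and TRA2B (0.91, adjusted p = 2.9e-06).

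Among the 5 kinases, 3 rose and 1 fell between 24 and 72 h (17.7% of all genes each way). CLK1, which phosphorylates SR proteins and is itself regulated by intron retention, lay at 9.25, 8.12 and 8.10 at 0 h, at 8.58, 8.78 and 8.67 at 24 h, at 8.88, 9.56 and 9.36 at 48 h, and at 10.12, 10.70 and 10.46 at 72 h. The 72 h arrays lay above every earlier array, and the first 0 h array stood above the other two. The rise from 24 to 72 h was 1.75 (SE 0.25; 3.37-fold; limma adjusted p = 5.6e-07). CLK3, a paralogue of CLK1, was at 9.09, 9.05 and 9.19 at 24 h and 9.78, 9.92 and 9.79 at 72 h, again without overlap, a rise of 0.72 (SE 0.13; adjusted p = 2e-05). CLK4, the lowest of the 38 genes, rose by 0.60 (SE 0.23; adjusted p = 0.039), a call that was lost in 9 of 16 alternative settings. CLK2 differed by 0.04 (SE 0.19; adjusted p = 0.92). PRPF4B fell by 0.62 on its chosen probe set (SE 0.13, limma adjusted p = 0.00026), but it had probe sets called in both directions.

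Of the other genes with arginine-serine-rich tails and nuclear speckle genes, 3 of 4 rose between 24 and 72 h and SON fell (17.7% of all genes each way). PNISR, a serine- and arginine-rich speckle protein, was at 10.76, 10.80 and 10.68 at 0 h, 9.80, 9.99 and 9.97 at 24 h, 10.27, 11.01 and 10.84 at 48 h, and 11.56, 11.77 and 11.48 at 72 h. It first fell by 0.82 and then rose by 1.68 from 24 to 72 h (SE 0.16; 3.21-fold; adjusted p = 1.6e-10), with the 72 h arrays above all others. RSRP1, an arginine- and serine-rich protein, was at 9.44, 9.94 and 9.78 at 24 h and 11.15, 11.54 and 11.11 at 72 h. It rose by 1.55 (SE 0.17; 2.92-fold; adjusted p = 2.5e-09) without overlap. ARGLU1, a splicing coactivator, rose by 0.94 (adjusted p = 6.5e-08), and SON, a speckle scaffold, fell by 0.54 (adjusted p = 1.2e-06).

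Of the 5 RNA-binding motif and DDX17 helicase genes, 4 rose between 24 and 72 h (17.7% of all genes). RBM5, a regulator of apoptosis-related splicing, stood at 9.93, 9.96 and 10.04 at 24 h and 10.94, 11.04 and 11.09 at 72 h, a rise of 1.05 (2.07-fold; adjusted p = 2.8e-06). RBM6, a paralogue of RBM5, rose by 0.98 (adjusted p = 3.2e-05). RBM39, a U2AF-related coactivator, rose by 0.55 and DDX17 by 0.50, whereas RBM25 differed by 0.00 (adjusted p = 0.99). LUC7L3, a U1 snRNP-associated protein, was at 11.42, 11.43 and 11.38 at 24 h and 12.37, 12.58 and 12.32 at 72 h. It rose by 1.01 (SE 0.11; adjusted p = 2e-09), all its 72 h arrays lying above the rest. SNRNP70, the U1 snRNP 70K protein, fell by 0.54 (adjusted p = 0.029), and LUC7L differed by 0.39 (adjusted p = 0.15).

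Of the 11 SR protein and TRA2 genes, 2 rose and 7 fell between 24 and 72 h, whereas 8 had risen between 0 and 24 h. Over all genes 17.7% rose and 17.7% fell from 24 to 72 h, so the share of this group that rose was near that of all genes, and 14% rose from 0 to 24 h. SRSF2, an exonic enhancer binder, was at 9.91, 10.23 and 10.09 at 0 h, 11.05, 11.32 and 11.05 at 24 h, 10.75, 10.64 and 10.28 at 48 h, and 10.40, 10.36 and 10.05 at 72 h. It rose by 1.06 in the first day (adjusted p = 6.8e-08) and fell by 0.87 from 24 to 72 h (SE 0.13; adjusted p = 1.2e-06), and the 24 h arrays overlapped with neither 0 h nor 72 h. TRA2B, an SR-like regulator of alternative exons, was at 10.97, 11.45 and 11.60 at 0 h, 12.23, 12.35 and 12.18 at 24 h, and 11.25, 11.16 and 10.86 at 72 h. It fell by 1.17 (SE 0.14; 2.24-fold; adjusted p = 1.5e-08) from 24 to 72 h. SRSF3, also an export adaptor, was at 13.12, 13.12 and 12.97 at 24 h and 12.32, 12.10 and 12.09 at 72 h, and fell by 0.90 (adjusted p = 8.4e-07).
SRSF5 ran the other way: it was at 11.17, 10.84 and 10.88 at 0 h, 10.51, 10.21 and 10.15 at 24 h, and 11.08, 11.49 and 11.09 at 72 h. It fell by 0.67 and then rose by 0.93 (SE 0.17; adjusted p = 3.1e-05). SRSF11 rose by 0.71 (adjusted p = 6e-06). SRSF1, SRSF6, SRSF7 and SRSF10 fell by 0.63, 0.64, 0.61 and 0.79, and SRSF4 and TRA2A differed by −0.00 and −0.23 (adjusted p = 0.99 and 0.074).

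None of the 10 hnRNP genes rose between 24 and 72 h and 8 fell, while 9 had risen between 0 and 24 h, beside 17.7% of all genes lower in the later and 14% higher in the earlier comparison. HNRNPM was at 11.19, 11.30 and 11.31 at 0 h, 12.40, 12.46 and 12.44 at 24 h, 11.60, 11.61 and 11.74 at 48 h, and 10.59, 10.51 and 10.49 at 72 h. The 4 untreated times did not overlap with one another. From 24 to 72 h it fell by 1.90 (SE 0.14; 3.74-fold; adjusted p = 3.8e-13), and at 72 h it was lower than at 0 h by −0.74 (adjusted p = 0.00039). HNRNPU, a nuclear matrix protein that also binds RNA, was at 12.23, 12.27 and 12.13 at 24 h and 11.34, 11.24 and 11.22 at 72 h, a fall of 0.94 (SE 0.11; adjusted p = 4.2e-09). HNRNPL, PTBP1 and HNRNPD fell by 0.70, 0.35 and 0.49, and HNRNPH1 and RBMX, an hnRNP related to the testis-specific RBMY family, differed by 0.12 and −0.09 (adjusted p = 0.49 and 0.53). These are values of the chosen probe sets, and HNRNPA1, HNRNPA2B1, HNRNPD and HNRNPU had probe sets called in both directions.

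**Figure D2:**
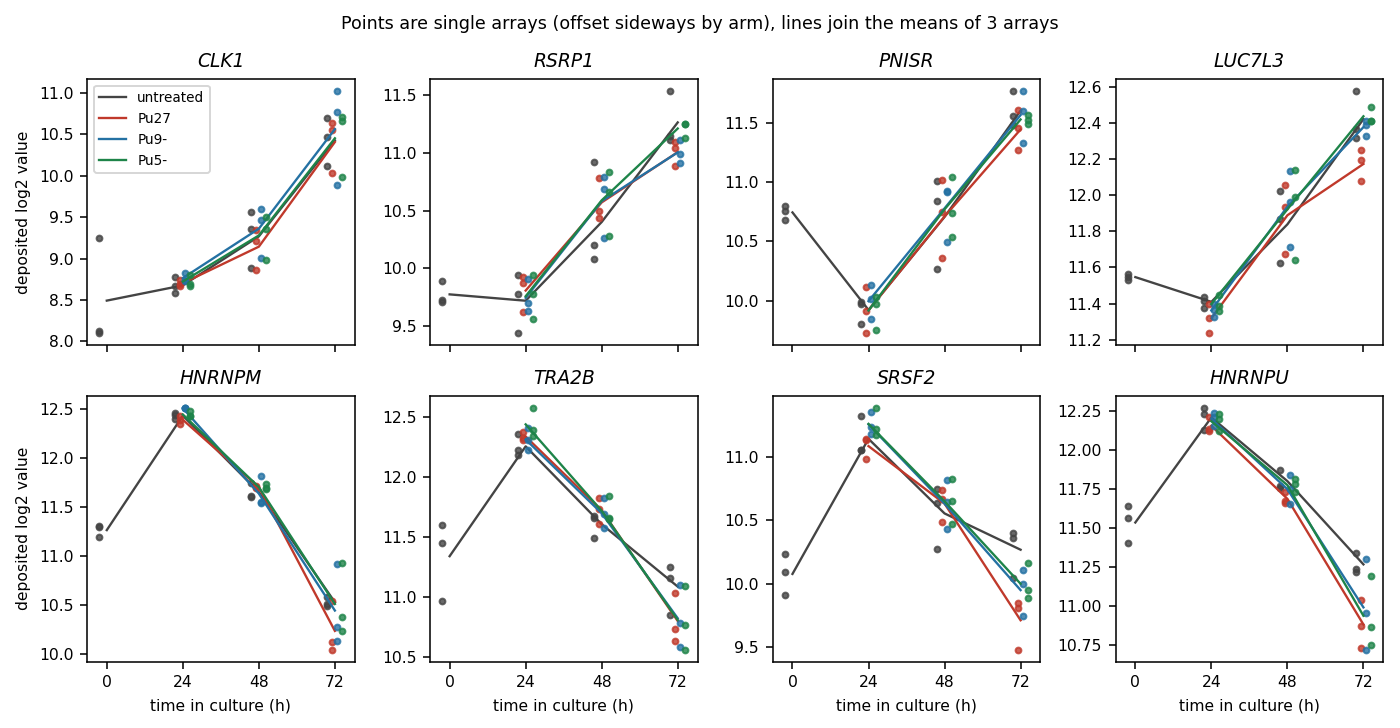
Log2 level of CLK1, RSRP1, PNISR, LUC7L3, HNRNPM, TRA2B, SRSF2 and HNRNPU on each array against hours of culture, in panels of 1 gene, with points for single arrays, lines for group means and colours for untreated cells and the 3 oligonucleotides. CLK1 and PNISR end above their 24 h values and HNRNPM and TRA2B end below theirs in every arm.

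Upstream windows of 4 genes are printed because their genes carry results given above or, for RBMX, below, and they differ in the motifs searched. They are the 250 bases before the annotated start (RefSeq, GRCh38.p14), 5′ to 3′ on the strand of the gene. In PNISR (chr6:99425309-99425558, minus strand) and HNRNPM (chr19:8444725-8444974, plus strand), capitals mark the MYC-type E-box CACGTG. In RBMX (chrX:136880726-136880975, minus strand) they mark CCAAT, and in RSRP1 (chr1:25338255-25338504, minus strand) 4 or more runs of at least 3 G with gaps of 1 to 7 bases.
PNISR: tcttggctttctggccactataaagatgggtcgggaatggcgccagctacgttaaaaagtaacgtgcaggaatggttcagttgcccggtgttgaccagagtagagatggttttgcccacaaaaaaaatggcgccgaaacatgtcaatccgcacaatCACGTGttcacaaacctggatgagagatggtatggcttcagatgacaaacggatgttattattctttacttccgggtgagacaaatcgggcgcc
HNRNPM: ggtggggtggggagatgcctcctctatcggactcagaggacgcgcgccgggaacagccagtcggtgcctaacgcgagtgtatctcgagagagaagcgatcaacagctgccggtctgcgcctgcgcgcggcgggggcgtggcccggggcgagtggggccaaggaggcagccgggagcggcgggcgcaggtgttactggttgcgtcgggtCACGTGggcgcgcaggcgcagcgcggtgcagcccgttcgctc
RBMX: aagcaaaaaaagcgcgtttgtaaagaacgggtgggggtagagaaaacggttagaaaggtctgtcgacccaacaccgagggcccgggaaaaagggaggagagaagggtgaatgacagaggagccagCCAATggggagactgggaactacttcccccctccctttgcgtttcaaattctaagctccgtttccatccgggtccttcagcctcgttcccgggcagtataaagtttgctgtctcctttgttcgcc
RSRP1: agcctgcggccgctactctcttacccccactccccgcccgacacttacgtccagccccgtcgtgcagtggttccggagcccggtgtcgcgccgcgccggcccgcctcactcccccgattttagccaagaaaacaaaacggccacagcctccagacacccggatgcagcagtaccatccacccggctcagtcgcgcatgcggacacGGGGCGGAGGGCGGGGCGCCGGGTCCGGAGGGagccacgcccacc
Of 39 genes, 35 matched the RefSeq table, with 44 windows, and both strands were searched. CACGTG was found in 5 of 44 windows (11.4%) against 6.32% of all 34943 windows, CCAAT in 15 (34.1%) against 32.0%, and the G-run motif in 9 (20.5%) against 23.4%. The windows of CLK1 and TRA2B hold none of the 3. A match is only a run of letters.

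The comparisons between 72 and 24 h were also made with each oligonucleotide, a choice made after seeing the data. Against 19.7% of all genes higher and 16.8% lower with Pu27, 12 of the 38 rose and 17 fell. With Pu9-, 13 rose and 18 fell (17.5% and 18% of all genes), and with Pu5-, 12 rose and 17 fell (18.5% and 17.5%). The same 12 genes rose in all 4 arms (31.6% of the 38, against 12.6% of all genes): CLK1, CLK3, RSRP1, SRSF5, SRSF11, RBM5, RBM6, RBM39, PNISR, LUC7L3, DDX17 and ARGLU1. Of these, SRSF5 had probe sets called in both directions with Pu27 and with Pu9-. The same 15 fell in all 4 (39.5%, against 12.7%), and RBM25, HNRNPH1 and LUC7L were called in none. For some of the 15 the sign turned positive when the mean over all probe sets of a gene was used. It did so for HNRNPD in all 4 arms, for HNRNPA2B1 and PRPF4B in untreated cells and with Pu9- and Pu5-, and for HNRNPA1 in untreated cells. Some of these values were close to no change, as for HNRNPD with Pu27, and the sizes are given in the last section. Each arm has its own arrays at both times. CLK1 rose by 1.71, 1.80 and 1.73 with Pu27, Pu9- and Pu5-, and HNRNPM fell by 2.15, 2.06 and 1.93.

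**Figure D3:**
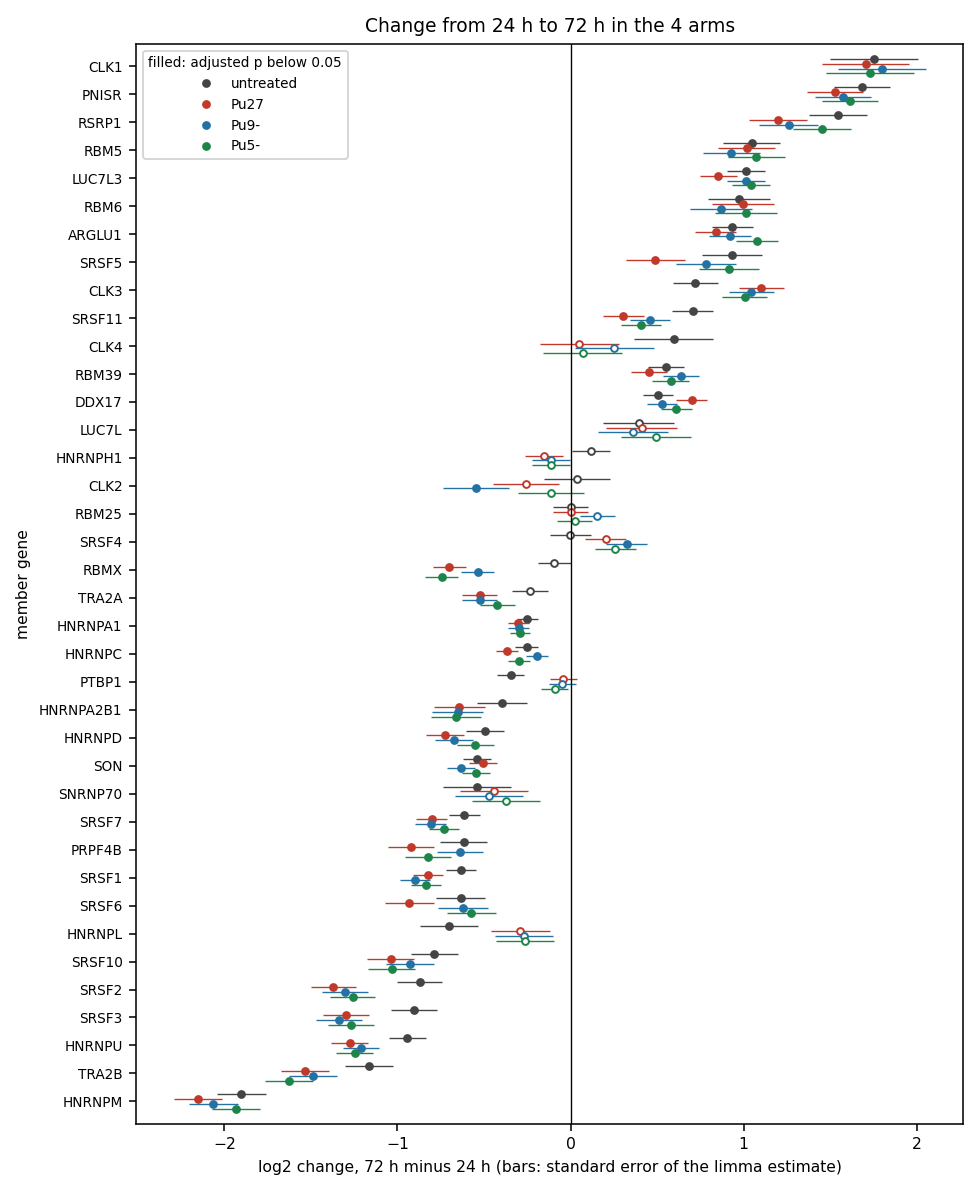
Log2 change from 24 h to 72 h of each gene in untreated cells and with Pu27, Pu9- and Pu5-. Bars are the standard error of the limma estimate, and filled points passed the adjusted threshold of 0.05. The 12 genes named above lie right of 0 in all 4 arms, and HNRNPM lies farthest left.

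CLK1 at 72 h was at 10.04, 10.64 and 10.55 with Pu27, 9.89, 11.02 and 10.78 with Pu9-, and 9.99, 10.71 and 10.66 with Pu5-. All 3 groups overlapped with the untreated arrays, and at 48 h the first array of each arm was the lowest (8.88 untreated, 8.87, 9.01 and 8.98 with Pu27, Pu9- and Pu5-). HNRNPM at 72 h was at 10.55, 10.12 and 10.05 with Pu27, 10.92, 10.28 and 10.14 with Pu9-, and 10.93, 10.38 and 10.23 with Pu5-, and these groups likewise overlapped with the untreated arrays. PNISR rose by 1.53, 1.57 and 1.61 with Pu27, Pu9- and Pu5-, and TRA2B fell by 1.53, 1.49 and 1.63.

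On its chosen probe set, CLK4 rose in untreated cells and was not called with an oligonucleotide. Other CLK4 probe sets were called, in both directions, with Pu27 and with Pu5-. HNRNPL, SNRNP70 and PTBP1 fell in untreated cells and were called in no oligonucleotide arm. On the chosen probe sets of these genes, the differences between arms did not pass the test. For CLK4 they were −0.55, −0.35 and −0.53 with Pu27, Pu9- and Pu5- (adjusted p = 0.59, 0.87 and 0.81), for PTBP1 0.30, 0.30 and 0.25 (0.3, 0.45 and 0.66) and for HNRNPL 0.41, 0.43 and 0.44 (0.58, 0.69 and 0.76). All differences of a gene subtract the same untreated change, so their likeness across arms is partly built in. At 72 h CLK4 was at 8.35, 8.09 and 8.04 in untreated cells, 7.64, 7.55 and 7.47 with Pu27, 8.18, 7.27 and 7.73 with Pu9-, and 8.26, 6.65 and 7.37 with Pu5-. The Pu27 arrays lay below the untreated ones and the other 2 groups overlapped with them. With Pu9-, CLK2 fell by 0.55 (adjusted p = 0.022) and SRSF4 rose by 0.33 (adjusted p = 0.03). SRSF4 differed by 0.26 with Pu5- and 0.20 with Pu27, neither called, and the Pu9- changes did not differ from those of untreated cells past the threshold (adjusted p = 0.61 for CLK2 and 0.67 for SRSF4).

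On their chosen probe sets, RBMX and TRA2A fell from 24 to 72 h in each oligonucleotide arm and were not called in untreated cells. TRA2A had probe sets called in both directions in each of these arms. RBMX fell by 0.70, 0.54 and 0.74 with Pu27, Pu9- and Pu5-, and TRA2A by 0.52, 0.52 and 0.42. The difference between arms was itself tested: for RBMX it was −0.65 with Pu5- (SE 0.13; 95% interval −0.93 to −0.38; adjusted p = 0.0435), −0.61 with Pu27 (adjusted p = 0.063) and −0.44 with Pu9- (adjusted p = 0.36). With the replicate number as a block the Pu27 difference passed (adjusted p = 0.011), as it did with an intensity trend (0.023) and among genes above the median level (0.025). With or without the block RBMX was the one gene of the 38 called in these tests, which all share the same untreated arrays. Without the block 0.0496%, 0.00552% and 0.0717% of all genes were called for Pu27, Pu9- and Pu5-. The Pu5- call was lost in a fit of the compared groups alone (adjusted p = 0.183) and was kept in 2 of 12 fits that left out a single array. Tests of whether an effect differed among the times called 0 of the 38 for each oligonucleotide, against 0.0441%, 0.00552% and 0.0441% of all genes at the adjusted threshold. At an unadjusted limma p under 0.05 there were 6, 4 and 2 of the 38. That threshold is looser, and no share of all genes was counted for it. With the replicate block these tests called 1 gene for Pu27 and 1 for Pu5-.

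The other genes of the pathway came from 6 lists of 161 entries, of which 151 were measured. Their counts stand against 17.7% of all genes higher and 17.7% lower between 24 and 72 h in untreated cells, and 14% higher between 0 and 24 h. Of 55 core spliceosome genes, 34 fell and 3 rose between 24 and 72 h (median −0.43), and 28 had risen between 0 and 24 h. PRPF19, a ubiquitin ligase of the spliceosome, fell by 1.23, SF3B3 by 1.04 and SNRPD1 by 0.88, whereas SNRNP48 rose by 0.77 and SF3B1 by 0.53. Of 19 other hnRNP genes, 8 fell, HNRNPAB by 1.47 and SYNCRIP by 1.08, and 5 rose, HNRNPDL by 1.32. Of 23 other SR-related and speckle genes, 9 rose and 6 fell: NKTR rose by 1.54 and the cyclins CCNL1 and CCNL2 by 1.28 and 1.10, and BCLAF1 fell by 1.09. Of 15 genes in a list of further kinases, phosphatases and phosphatase subunits, 4 rose and 6 fell, CDK12 by 1.04. Among 27 other regulators of alternative splicing, 6 rose, MBNL2 by 1.52, and 11 fell, CIRBP by 1.33. Of 12 genes of nonsense-mediated decay and the exon junction complex, 5 fell, RBM8A by 0.99, and 2 rose, a share near that of all genes.

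Different probe sets of a gene did not always move together. Of 192 probe sets of these genes, 76 rose and 72 fell between 24 and 72 h in untreated cells, against 16.5% and 16.9% of all probe sets. Of 36 genes with several probe sets, 6 had probe sets called in both directions (16.7%, against 2.68% of 11734 such genes): RBM25, HNRNPA1, HNRNPA2B1, HNRNPD, HNRNPU and PRPF4B. Among genes with 5 or more probe sets the shares were 5 of 20 (25%) and 7.5%. From 0 to 24 h the share was 11.1% against 1.38%, and from 24 to 72 h it was 22.2% with Pu27 (3.33% of all), 22.2% with Pu9- (2.84%) and 19.4% with Pu5- (3.41%). CLK4, SRSF5, TRA2A and SON had probe sets called in both directions over that time in some or all oligonucleotide arms. The difference between a probe set and the chosen one was called in 63 of 153 cases (41.2%), against 18.1% over all genes. Many of these genes make alternative 3′ ends and nonsense-decay forms, and which form each probe set reads was not determined.

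HNRNPD, which binds AU-rich mRNA, had the widest gap. Its chosen probe set was at 12.46, 12.53 and 12.47 at 24 h and 12.09, 12.12 and 11.77 at 72 h. One of 2 probe sets that rose, of a type in which some probes can match other sequences, was at 8.15, 7.85 and 7.84 at 0 h, 5.53, 6.04 and 5.71 at 24 h, 7.37, 8.24 and 7.85 at 48 h, and 9.64, 9.89 and 9.55 at 72 h. It rose by 3.93 (SE 0.20; 15.3-fold) without overlap while the chosen one fell, and the gap between their changes was 4.43 (adjusted p = 4.7e-15). In HNRNPU, 3 probe sets rose by 1.86, 1.79 and 1.04 and 7 fell. In PRPF4B, 3 rose and 2 fell. HNRNPA2B1 and HNRNPA1 each had a probe set that rose, by 0.89 and 1.08. All probe sets of CLK1 (3), PNISR (10), RSRP1 (5), LUC7L3 (5), RBM5 (6), ARGLU1 (5) and SRSF11 (6) rose, and all 7 of SRSF10 fell.

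**Figure D4:**
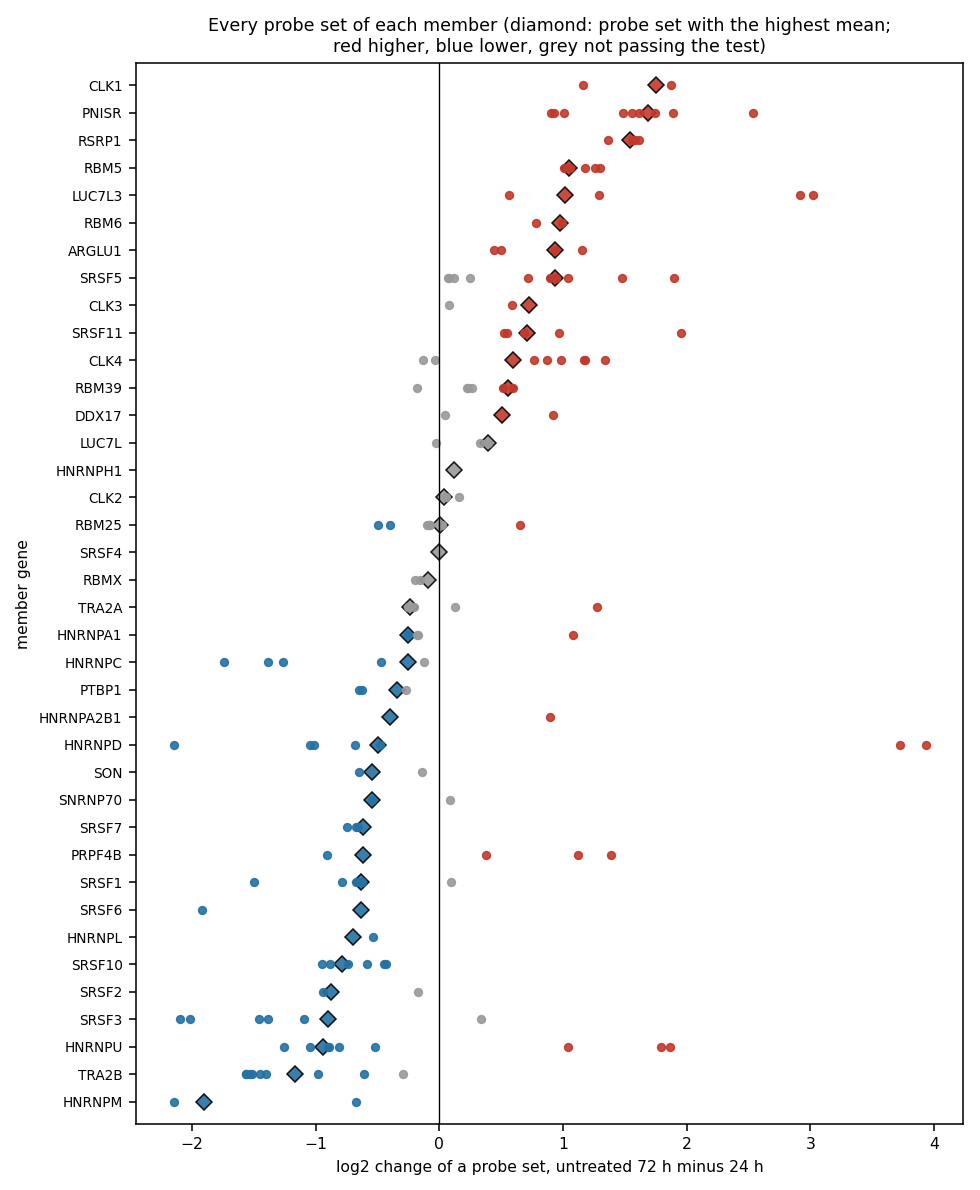
Log2 change from 24 h to 72 h in untreated cells of every probe set of the 38 genes, 1 row a gene and 1 point a probe set. Diamonds are the chosen probe sets, red points rose, blue points fell and grey points did not pass the test. HNRNPD spans from falls to a rise of 3.93.

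Between cells with an oligonucleotide and untreated cells of the same time, at most 3 of the 38 genes passed the adjusted threshold. The 3 comparisons share the untreated arrays. At 24 and 48 h, 0 genes were called, against 0.0662% and 0.193% of all genes with Pu27, 0.0165% at both times with Pu9-, and 0.0165% at both times with Pu5-. At an unadjusted p under 0.05 there were at most 1 of 38 genes in any of these limma comparisons, and the smallest adjusted p was 0.358, for RBMX with Pu27 at 48 h. At 72 h, 3 genes were lower with Pu27 (RBMX, SRSF2 and HNRNPU), where 5.08% of all genes were called. With Pu9- and with Pu5-, RBMX was the single gene called, and it was lower, where 0.96% and 0.778% were called.

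At an unadjusted p under 0.05 there were 20 of the 38 genes at 72 h with Pu27, 10 with Pu9- and 8 with Pu5-. With Pu27, 33 of the 38 differences were negative, with a median of −0.18 against 0.04 over all genes, and in 18 genes the Pu27 and untreated arrays did not overlap. Apart from the median, no share of all genes is given beside these counts, so they cannot be read as particular to these genes.

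RBMX was at 11.07, 10.82 and 10.82 at 48 h in untreated cells and at 10.66, 10.53 and 10.64 with Pu27, which did not overlap but missed the test (−0.30). At 24 h it was at 10.98, 10.98 and 11.03 in untreated cells and 11.05, 10.81 and 10.98 with Pu27, with overlap. RBMX at 72 h was at 10.95, 10.82 and 10.94 in untreated cells, 10.33, 10.25 and 10.16 with Pu27, 10.69, 10.48 and 10.29 with Pu9-, and 10.37, 10.31 and 10.41 with Pu5-. Every oligonucleotide array lay below every untreated array. The differences from untreated were −0.66 with Pu27 (SE 0.10; 95% interval −0.85 to −0.46; adjusted p = 4.8e-05), −0.42 with Pu9- (−0.61 to −0.22; adjusted p = 0.023) and −0.54 with Pu5- (−0.74 to −0.35; adjusted p = 0.0023). All 3 RBMX probe sets were lower with Pu27, by −0.66, −0.55 and −0.57, and all 3 are of a type in which some probes can match other sequences. The chosen probe sets of SRSF5, RBM5, RBM6, RBM25, RBM39, HNRNPA1, HNRNPC and LUC7L are of that type as well. With the ACTB 3′ minus 5′ difference as a covariate the RBMX differences were −0.57, −0.39 and −0.55. The Pu27 call was kept in all 16 alternative settings, the Pu9- call was lost in 8 of 16 and the Pu5- call in 3 of 16. The Pu9- call was lost without untreated array 1 or 3 or Pu9- array 2 or 3 at 72 h. Without the first Pu9- array 8 of the 38 genes were called, and without the first Pu5- array 4 were. Calls over all genes were not counted in those fits.

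SRSF2 at 72 h was at 10.40, 10.36 and 10.05 in untreated cells and 9.81, 9.85 and 9.48 with Pu27, without overlap, a difference of −0.56 (SE 0.13; 95% interval −0.82 to −0.29; adjusted p = 0.0087). HNRNPU was at 11.34, 11.24 and 11.22 and, with Pu27, 11.04, 10.87 and 10.73, also without overlap, a difference of −0.39 (SE 0.11; −0.60 to −0.17; adjusted p = 0.025). With ACTB as a covariate both calls were lost. They were also lost in a fit of the compared groups alone, which called CLK4 (−0.60, adjusted p = 0.026) beside RBMX. Of the 72 h groups, the Pu27 arrays had the highest mean ACTB difference (2.24). Leaving out the first or the second untreated array or the third Pu27 array at 72 h each left 1 of the 38 genes called with Pu27, RBMX, and leaving out the first Pu27 array gave 5. With the replicate number as a block 8 were called, CLK3 at 0.41 (adjusted p = 0.011) and SRSF3 at −0.41 (adjusted p = 0.018) among them, and with Pu9- 2 were called. No share of all genes was counted for the leave-out and block fits. CLK1 differed from untreated at 72 h by −0.02 with Pu27 (95% interval −0.53 to 0.49), 0.13 with Pu9- (−0.38 to 0.65) and 0.02 with Pu5- (−0.49 to 0.54).

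**Figure D5:**
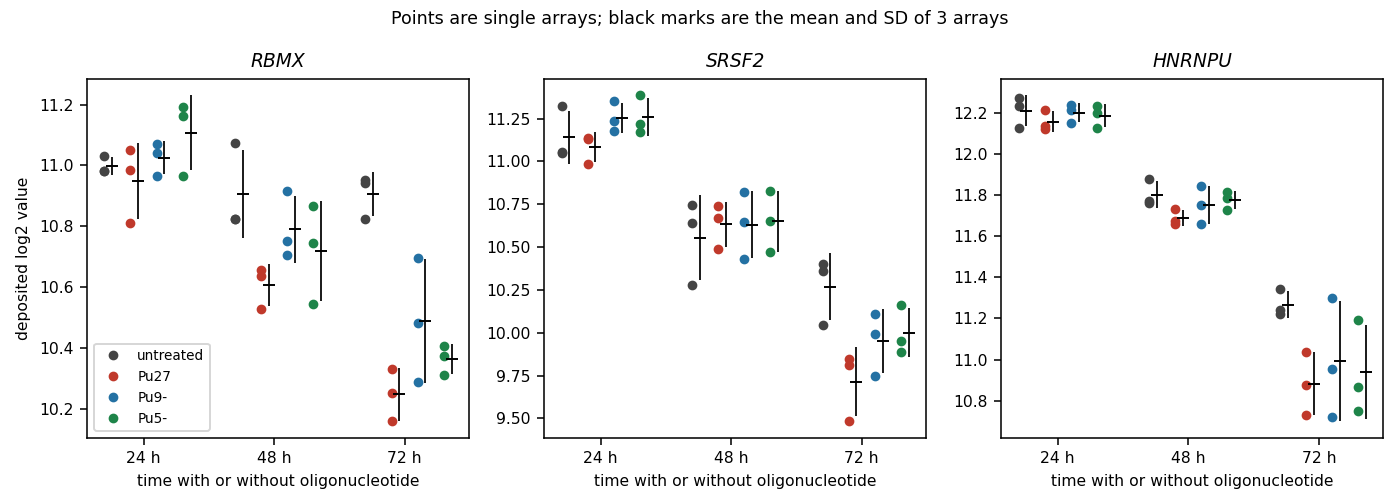
Log2 level at 24, 48 and 72 h of the genes called between an oligonucleotide and untreated cells, with points for single arrays, colours for the 4 arms and black marks for the mean and SD of 3 arrays. At 72 h the RBMX arrays of all 3 oligonucleotides lie below the untreated ones.

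Averaged over the 3 times, RBMX was lower with Pu27 by −0.34 (SE 0.05; adjusted p = 0.00018), the 1 gene of 38 called where 3.98% of all genes were. With Pu9- and Pu5- 0 were called (0.0882% and 0.254% of all genes), RBMX differing by −0.17 (adjusted p = 0.319) and −0.21 (adjusted p = 0.102); with the replicate block, Pu5- called RBMX (adjusted p = 0.030). Among the other genes of the pathway at 72 h with Pu27, PPP1R10, a targeting subunit of a protein phosphatase, was lower by −0.97 and CCNL1 by −0.74, and LSM4 was higher by 0.44. PPP1R10 was lower by −1.10 with Pu9- and −1.05 with Pu5-.

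The oligonucleotides were compared with one another at matched times, all at 10 µM, in 12 comparisons adjusted over all genes. None of the 38 genes was called in any. Between Pu27 and Pu9- the share of all genes called was 0%, 0.0662% and 1.51% at 24, 48 and 72 h and 1.38% for the mean. Between Pu27 and Pu5- it was 0%, 0.0165%, 0.248% and 0.248%, and between Pu9- and Pu5- 0%, 0%, 0.0496% and 0%. RBMX at 72 h differed by −0.24 between Pu27 and Pu9- (95% interval −0.43 to −0.05; adjusted p = 0.213), by −0.12 between Pu27 and Pu5- (−0.31 to 0.08; adjusted p = 0.765) and by 0.13 between Pu9- and Pu5- (−0.07 to 0.32; adjusted p = 1). These intervals leave room for differences of such size, and the missed threshold does not show that the oligonucleotides act alike.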

How the data were processed

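Total RNA of U937 cells was hybridised to Affymetrix 3′ expression arrays, 39 in 13 groups of 3. The authors deposited log2 values, which per the submitters' processing notes were made with RMA, and limma is named there too; versions were not given in the sources used here. Of 49293 probe sets without controls, 44988 carry 1 gene symbol, 1832 several and 2473 none. Each of 18132 genes was represented by whichever of its probe sets was brightest on average across all arrays; presence calls were not used. Groups came from the sample labels. One model of 13 group means was fitted with limma 3.58.1 in R 4.3.3 (eBayes, 26 residual and 7.13 prior degrees of freedom), with Benjamini-Hochberg adjustment over all genes at 0.05, and tested on simulated data. The number of arrays limits the precision. The members and gene lists were chosen with earlier results of these data known. Named genes of the other lists are the largest called changes in each direction. Same-numbered arrays deviated together (all correlations above 0.1) in 17 of 33 comparisons, including those of each oligonucleotide with untreated cells at 72 h. Alternatives were a replicate block, a common median, a filter on dim genes, an ACTB covariate, the mean over probe sets, an intensity trend, the compared groups alone and leaving out arrays; those for the comparisons of 72 with 24 h were chosen after seeing the data.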

Additional observations from a re-analysis of the deposited data

Results flagged for a closer look

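The change of RBMX from 24 to 72 h differed between cells with Pu5- and untreated cells by −0.65 on the log2 scale, in a limma test of the difference itself (adjusted p = 0.0435). Untreated arrays were at 10.98, 10.98 and 11.03 at 24 h and at 10.95, 10.82 and 10.94 at 72 h. With Pu5- they were at 11.16, 10.97 and 11.19 at 24 h and at 10.37, 10.31 and 10.41 at 72 h. The adjusted p was 0.0088 with the replicate block and 0.088 with arrays shifted to a common median. The call was kept with the ACTB covariate, with an intensity trend and among genes above the median level. It was lost with the mean over probe sets, with the compared groups alone and without any one replicate number. Most fits that left out a single array lost it too. The comparison was chosen after seeing the data.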

How the results depend on the processing

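The counts of called genes among the 38 varied as follows. Calls over all genes were counted in the main fit only, so the counts below have no share of all genes beside them. With the replicate block, 8 were called for Pu27 at 72 h, 2 for Pu9- at 72 h, 2 for the mean of Pu27 and 1 for the mean of Pu5-, 1 each for the time tests of Pu27 and Pu5-, and 1 for the Pu27 change beyond untreated; the block lost no call of a named gene. With a common median, Pu9- at 72 h and the Pu5- change beyond untreated each had 0. Among genes above the median level, Pu27 had 8 at 72 h, 2 for its mean and 1 for its change beyond untreated, and Pu5- had 1 for its mean. With the ACTB covariate Pu27 at 72 h had 1. With the mean over probe sets, Pu27 had 9 at 72 h and 3 for its mean, Pu9- at 72 h had 4 and the Pu5- change had 0. With an intensity trend, Pu27 had 2 for its mean and 1 for its change. With the compared groups alone, the Pu27 mean had 2, and Pu9- at 72 h, Pu5- at 72 h and the Pu5- change had 0. The causes were not tested.

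Leaving out arrays gave 16 to 23 called genes from 0 to 24 h, 6 to 21 from 24 to 48 h, 7 to 19 from 48 to 72 h and 5 to 19 from 0 to 72 h. From 24 to 72 h it gave 27 to 31 in untreated cells, 27 to 30 with Pu27, 27 to 32 with Pu9- and 28 to 30 with Pu5-. Against untreated at 72 h it gave 1 to 6 for Pu27, 0 to 9 for Pu9- and 0 to 5 for Pu5-, and for the means 1 to 2, 0 to 2 and 0 to 1. For the Pu9- time test it gave 0 to 1, and for the changes beyond untreated 0 to 2 with Pu9- and 0 to 1 with Pu5-.

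With the mean over all probe sets, directions reversed for HNRNPD from 0 to 24 h (−0.060), PRPF4B from 24 to 48 h (0.014), and from 24 to 72 h in untreated cells for HNRNPA1 (0.044), HNRNPA2B1 (0.248), HNRNPD (0.225) and PRPF4B (0.273). The same held from 24 to 72 h for HNRNPD with Pu27 (0.00090), for HNRNPA2B1 (0.073), HNRNPD (0.053) and PRPF4B (0.213) with Pu9-, and for HNRNPA2B1 (0.065), HNRNPD (0.162) and PRPF4B (0.140) with Pu5-. These genes have probe sets that moved in opposite directions.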
